A study of Mus musculus with 118 samples.

Results

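The transcripts of 5 calcium-binding proteins that serve as interneuron markers were followed here in single somatostatin-positive (SOM+) cells of the mouse neocortex. The genes were *Calb1* (calbindin), *Calb2* (calretinin), *Pvalb* (parvalbumin), *Necab1* and *Necab2*, which are 5 of the 23998 gene symbols in the count table. They were matched by name in the count table, and were picked with earlier results of these data known. Cells were recorded and their RNA collected by Patch-seq, in which the cytosol is drawn into the recording pipette and converted to cDNA. All cells came from adult SOM-Cre/Ai9 mice of both sexes, in which tdTomato marks every cell that expresses or once expressed somatostatin, so a labeled cell need not contain *Sst* transcripts. They lay in layer 4 (L4) or layer 5 (L5) of primary visual cortex (V1) or somatosensory cortex (S1), and no cell was treated.

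A cell entered the comparisons when it had 1500 or more detected genes, an *Sst* count above 0 and *Slc17a7* counts that did not exceed the sum of *Gad1* and *Gad2*. The kept cells were 42 of 44 in V1 L4, 34 of 39 in S1 L4, 17 of 19 in V1 L5 and 16 of 16 in S1 L5. Their total counts ranged from 97904 to 3295232, and the median total was between 1015272.5 and 1199868.5 in each area and layer. *Gad1* reads were present in every kept cell, and *Slc17a7*, the glutamate transporter of excitatory neurons, in 22. Because animals are not given in the labels, the cells of an area and layer were treated as a single sample, without p-values over cells. The spread given with a difference over all cells is the SD of the differences within recording days, whose mean can be another value. The day was taken from the date in each label. There were 9 such days, all L5 cells were from 4 of them, and the study's methods give fewer mice than that, so cells of 1 mouse can lie on more than 1 day, and the SD does not measure the spread between mice.

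Calbindin, calretinin and parvalbumin are small EF-hand proteins that bind calcium in the cytosol and so shape how long a calcium signal lasts after an action potential. In the neocortex parvalbumin classically marks fast-spiking basket and chandelier cells, calretinin marks many VIP cells and part of the SOM+ cells, and calbindin is common among SOM+ cells. *Necab1* and *Necab2* encode neuronal proteins with an N-terminal EF-hand region, and both occur in subsets of neurons.

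On the GRCm38 assembly *Calb1* lies on the plus strand at chr4:15881264-15908064 and *Calb2* on the minus strand at chr8:110137502-110168210. *Pvalb* lies on the minus strand at chr15:78191114-78206400, *Necab1* on the minus strand at chr4:14952245-15149794 and *Necab2* on the plus strand at chr8:119446719-119472640. All are protein-coding. The span of *Necab1* overlaps 2 annotated antisense genes, Gm11837 and Gm11844, and since the library preparation does not mark strand, reads from them cannot be told apart from *Necab1* reads.

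*Calb1* was the most abundant of the 5 genes and *Calb2* came next. To compare different genes the deposited RPKM values were used, which account for transcript length. Over the kept cells the mean RPKM was 305 for *Calb1*, 40.9 for *Calb2*, 16.6 for *Pvalb*, 2.95 for *Necab2* and 2.76 for *Necab1*. At least 1 read was found for *Calb1* in 65 cells, for *Pvalb* in 36, for *Calb2* in 28, for *Necab1* in 15 and for *Necab2* in 12. *Pvalb* was therefore detected in more cells than *Calb2*, with a lower mean level.

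The genes also differed in how strong a positive cell was. *Calb1* reached 32 or more counts in 55 of its 65 positive cells and *Calb2* in 24 of 28. For *Pvalb* this held in 15 of 36 cells, another 15 had 5 to 31 counts and 6 had 1 to 4 counts. *Necab1* reached 32 counts in 8 of 15 positive cells and *Necab2* in 6 of 12. As a measure of reads that do not come from the cell type, *Vip* was found in 3 of the kept cells and the endothelial gene *Cldn5* in 1, each with fewer than 32 counts, but *Slc17a7* had 32 or more counts in 7 cells and the myelin gene *Mbp* in 79. The shares of cells with *Necab1* (13.8%) or *Necab2* (11%) were below that with *Slc17a7* (20.2%), so by share alone these 2 genes cannot be told apart from stray reads. The share with *Mbp* (78.0%) was above that of each of the 5 genes, so beside *Mbp* the share alone sets none of them apart.

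**Figure D1:**
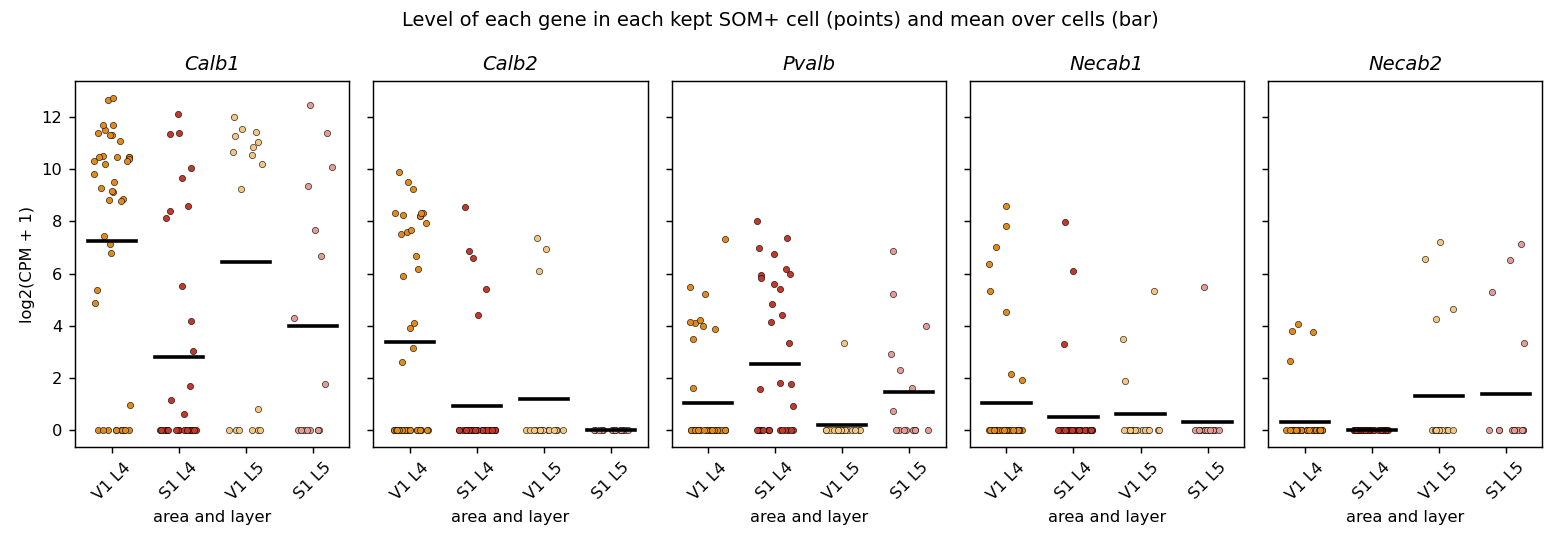
Each point is 1 kept cell, placed by area and layer on the x axis and by log2(CPM + 1) on the y axis, and each bar is the mean over cells. *Calb1* has cells at 0 and cells with high values in all 4 groups, while *Calb2* had no read in any of the 16 S1 L5 cells and *Necab2* none in the 34 S1 L4 cells.

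*Calb1*, the calbindin gene, was present at high levels in most V1 cells and in fewer S1 cells. Levels are in CPM, the counts of a gene scaled to the total of its cell. In V1 L4 the values ran from 0 through a median of 601 to 6840 CPM, with reads in 32 of 42 cells (76.2%, 95% Clopper-Pearson interval 60.5 to 87.9%). In S1 L4 they ran from 0 through a median of 0 to 4449 CPM, with reads in 14 of 34 cells (41.2%, 24.6 to 59.3%). The ranges overlapped from 0 to 4449 CPM, and over the positive cells alone the median was 1275 CPM for V1 L4 and 312 for S1 L4.

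In L5 the *Calb1* values of V1 had a median of 1176 and a maximum of 4086 CPM, with reads in 11 of 17 cells (64.7%, 38.3 to 85.8%). In S1 L5 the median was 1.21 and the maximum 5636 CPM, with reads in 8 of 16 cells (50.0%, 24.7 to 75.3%). The ranges again overlapped, and the highest S1 L5 cell supplied 8552 of the 16287 *Calb1* counts of that group. These intervals, like the others given here, take the cells as independent, although cells share recording days and can share animals.

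On the scale of mean log2(CPM + 1), *Calb1* was at 7.26 in V1 L4, 6.45 in V1 L5, 3.98 in S1 L5 and 2.82 in S1 L4. The step from V1 L5 to S1 L5 exceeded the SD of the day means in both groups (2.03 and 2.01). The steps between V1 L4 and V1 L5 and between S1 L5 and S1 L4 did not.

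*Calb2*, the calretinin gene, was mainly a transcript of V1 L4 cells. There the values ran from 0 through a median of 0 to 957 CPM, with reads in 20 of 42 cells (47.6%, 32 to 63.6%). Reads were found in 5 of 34 S1 L4 cells (14.7%, 4.95 to 31.1%), with a maximum of 371 CPM, and in 3 of 17 V1 L5 cells (17.6%, 3.8 to 43.4%), with a maximum of 164.8 CPM. In S1 L5 it had 0 counts in 16 cells, where 3 counts over the group would be 0.155 CPM. Such limits cover counting error only, because the reads were amplified by PCR and carry no molecular identifiers. The mean log2(CPM + 1) was 3.37 in V1 L4, 1.20 in V1 L5, 0.94 in S1 L4 and 0 in S1 L5, and V1 L5 and S1 L4 did not differ beyond the SD of their day means.

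*Pvalb*, the parvalbumin gene, was found in a larger share of S1 than of V1 cells in both layers. In S1, L4 had 18 positive cells of 34 (52.9%, 35.1 to 70.2%) and L5 had 7 of 16 (43.8%, 19.8 to 70.1%). In V1, reads were found in 10 of 42 L4 cells (23.8%, 12.1 to 39.5%) and in 1 of 17 L5 cells (5.88%, 0.149 to 28.7%). The levels were low, since the median over positive cells was 44.5 CPM for S1 L4, 16.7 for V1 L4 and 6.65 for S1 L5, and the single V1 L5 cell had 9.29 CPM.

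The highest *Pvalb* values were 257 CPM (S1 L4), 161.7 CPM (V1 L4) and 115.7 CPM (S1 L5). In S1 L5 a single cell held 69.0% of the 229 counts, and without it the pooled level fell from 11.8 to 3.94 CPM. In V1 L4 a single cell held 328 of 608 counts, and without it the pooled level fell from 11.4 to 5.48 CPM. The mean log2(CPM + 1) was 2.56 in S1 L4, 1.48 in S1 L5, 1.04 in V1 L4 and 0.20 in V1 L5. Of these steps only the one from V1 L4 to V1 L5 exceeded the SD of the day means (0.70 and 0.56).

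Cells with *Pvalb* were also more deeply sequenced, with a median total of 1621900 counts, against 969686 in the cells without it. To set depth aside, 250000 reads were drawn from each cell, leaving out 3 L5 cells with fewer. In the draw *Pvalb* was found in 10 of 42 V1 L4 cells, 17 of 34 S1 L4 cells, 1 of 15 V1 L5 cells and 2 of 15 S1 L5 cells. As the last value depends on chance in the draw, the exact expected numbers were added after it was seen, and they were 9.39, 15.5, 0.91 and 5.08 cells. The L4 values stayed close to those without thinning, whereas the S1 L5 share was 13.3% in the draw and 33.9% in expectation.

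*Necab1* was rare in each area and layer. Reads were found in 8 of 42 V1 L4 cells, 3 of 34 S1 L4 cells, 3 of 17 V1 L5 cells and 1 of 16 S1 L5 cells, and the maxima were 388, 251, 39.6 and 43.8 CPM in this order. A single V1 L4 cell held 817 of 1372 counts, and a single S1 L4 cell 512 of 590. No 2 neighbours in the order of mean log2(CPM + 1), which was 1.04 in V1 L4, 0.63 in V1 L5, 0.51 in S1 L4 and 0.34 in S1 L5, differed beyond the SD of the day means.

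Over all recording days, *Necab2* was found in a larger share of L5 than of L4 cells. On the days that held L5 cells, however, V1 had reads in 2 of 7 L4 and 4 of 17 L5 cells. In S1 these were 0 of 12 and 4 of 16. Positive cells in L5 were 4 of 17 for V1 (23.5%, 6.81 to 49.9%) and 4 of 16 for S1 (25%, 7.27 to 52.4%), with maxima of 148.2 and 141.5 CPM. In V1 L4 it had reads in 4 of 42 cells (9.52%, 2.66 to 22.6%), none above 15.9 CPM, and the pooled level of 0.847 CPM was below that of *Slc17a7* in the same cells (4.40 CPM). In S1 L4 it had 0 counts in 34 cells, where 3 counts over the group would be 0.0625 CPM. The mean log2(CPM + 1) was 1.40 in S1 L5, 1.34 in V1 L5, 0.34 in V1 L4 and 0 in S1 L4, and no neighbours in this order differed beyond the SD of their day means.

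**Figure D2:**
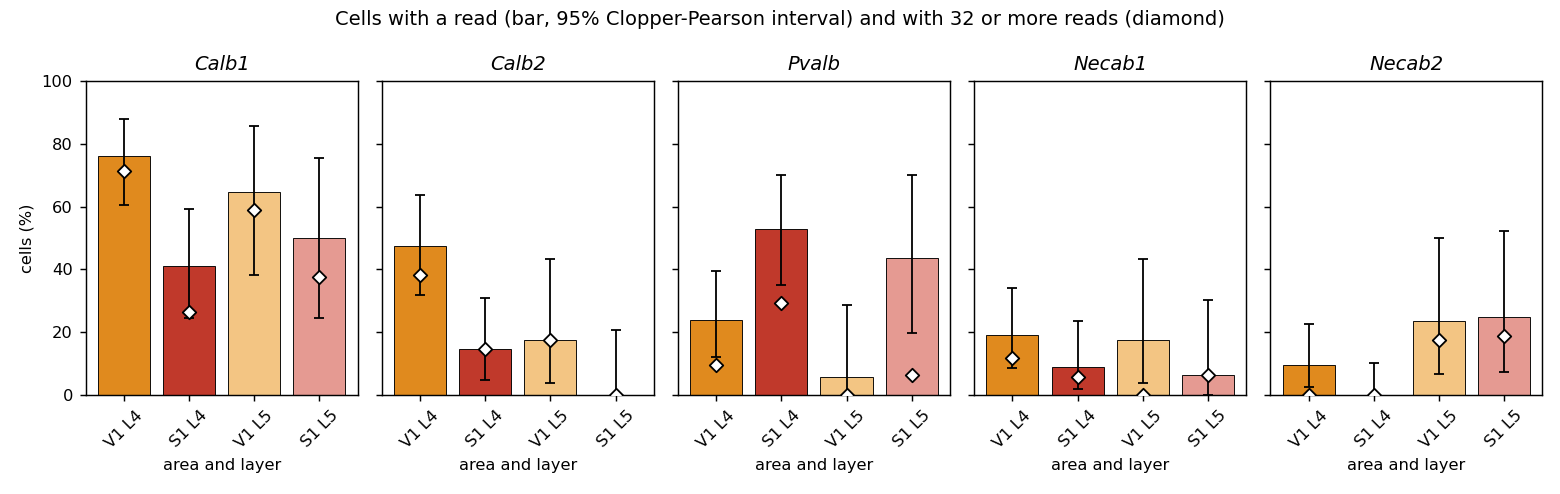
Bars give the percentage of kept cells with at least 1 read of each gene by area and layer, error bars the 95% Clopper-Pearson interval and diamonds the percentage with 32 or more counts. For *Calb1* the diamonds lie near the tops of the bars in V1 L4 (30 of 32 positive cells), while for *Pvalb* they lie well below them (4 of 10 in V1 L4, 10 of 18 in S1 L4).

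Between the areas in L4, only *Calb2* of the 5 genes met the criterion below, and it was lower in S1. The difference was −4.44 for *Calb1* and 1.52 for *Pvalb*, and both failed the part of the criterion on the sign in every day. Differences are means over cells on the log2(CPM + 1) scale, S1 minus V1. They were also computed within the 5 days with at least 2 cells of each area. A gene met the criterion for a difference when its size was at least 1 and its sign was the same in every such day, among genes with 32 or more counts in at least 10 of the cells compared. By this criterion 294 of 9201 genes (3.2%) differed, 1.3% higher in S1 and 1.89% lower. By size alone, 15.8% did, 8.12% higher and 7.66% lower.

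*Calb2* met it, as 1 of the 3 genes of the 5 that passed the filter on counts. Its difference was −2.44 ± 0.83 (SD over 5 days), it was lower in S1 on 5 of 5 days, and the pooled level was 7.01-fold lower in S1 (18.8 against 132.2 CPM). A single cell held 45.5% of the S1 L4 counts, and without it the S1 L4 level was 10.5 CPM. The filter was passed mostly through V1, where 16 of the 21 cells with 32 or more counts lay.

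*Calb1* had the larger difference, −4.44, but did not meet the criterion. The difference was negative on 4 of 5 days, from −10.81 to −4.61, and 1.66 on day 2. The mean of the within-day differences was −5.20 and their SD was 4.56. Without day 2 the difference was −5.43 and the sign was the same on the 4 other days. *Pvalb* differed by 1.52 over all cells, and its within-day differences had a mean of 3.09 and an SD of 2.13. The difference was positive on 4 days, from 1.82 to 5.12, and 0 on day 3, when neither area had a *Pvalb* read in the cells of that comparison. Leaving out day 3 gave 2.02, with the same sign on the remaining 4 days.

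Oligodendrocyte transcripts had unlike levels in the same cells. The summed level of 6 oligodendrocyte genes had a median of 156 CPM per cell (0 to 3717) in V1 L4 and of 644 CPM (0 to 9702) in S1 L4. The summed level of the 10 genes of the fast-spiking PV list other than *Pvalb* had a median of 802 CPM (59.5 to 4398) in V1 L4 and of 1827 CPM (47.2 to 5141) in S1 L4. Most of that sum was *Cplx1* and *Kcnc1*, at 1383 and 266 CPM pooled over the kept cells, and each was found in all but 3 of them. The part of these levels in the *Calb1*, *Calb2* and *Pvalb* differences was not tested. *Necab1* (−0.53 ± 2.36) and *Necab2* (−0.34 ± 0.86) did not pass the filter and differed by less than their SD.

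Between the areas in L5, *Calb1* was lower in S1, and here 813 of 6402 genes (12.7%) met the criterion, 547 (8.54%) higher in S1 and 266 (4.15%) lower. By size alone, 33.6% differed, 23.6% higher and 10% lower. The *Calb1* difference was −2.46 ± 1.58 (SD over 4 days), with the same sign on 4 of 4 days, and the pooled level was 840 CPM in S1 and 1380 CPM in V1. It was the only one of the 5 genes that passed the filter on counts, and it met the criterion. Of its 16 cells with 32 or more counts, 10 were in V1 and 6 in S1. The V1 cells, where it was higher, were thus enough to pass the filter.

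*Pvalb* differed by 1.28 ± 0.43, positive on 4 of 4 days, but only 1 cell had 32 or more counts, so it was not eligible. Thinning to 250000 reads brought this difference to 0.56. *Calb2* differed by −1.20 ± 0.86, lower on 3 of 4 days and equal on the other. It had reads in 3 of 17 V1 L5 cells, 1 of which held 49.1% of the 403 counts, and in 0 of 16 S1 L5 cells. *Necab1* (−0.29 ± 1.44) and *Necab2* (0.06 ± 0.71) differed by less than their SD.

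**Figure D3:**
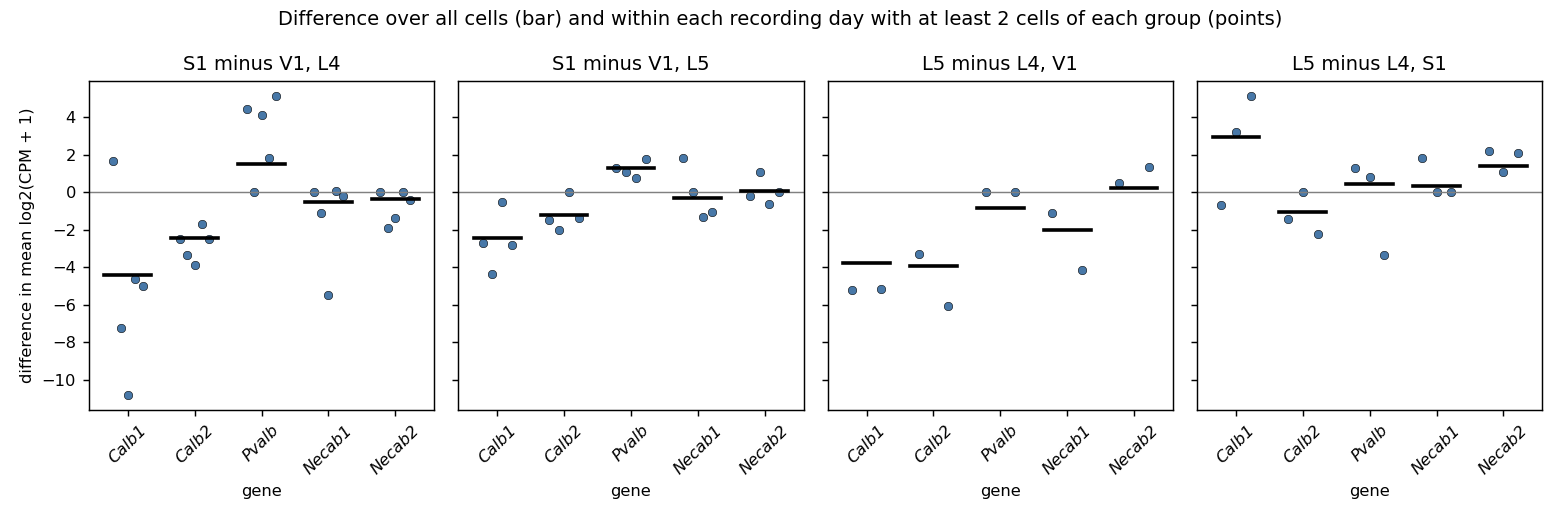
Points are differences in mean log2(CPM + 1) within recording days that held 2 or more cells of both groups, and bars the difference over all cells, for 2 comparisons of areas and 2 of layers. *Calb2* lies below 0 on all 5 days in L4, *Calb1* lies below 0 on 4 of 5 days in L4 and on 4 of 4 in L5, and the comparison of layers in V1 rests on 2 days.

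Layers were compared within each area over the recording days that held L5 cells, as L5 minus L4. In V1 this left 17 L5 and 7 L4 cells and only 2 days with at least 2 cells of each, so the SD of 2 values is no usable spread. The criterion was met by 1280 of 4778 genes (26.8%), of which 856 (17.9%) were lower in L5 and 424 (8.87%) higher. By size alone, 39.3% differed, 14.9% higher and 24.4% lower. The *Calb1* difference was −3.75, with −5.22 and −5.18 on the 2 days, and met the criterion. With all recording days, an alternative added after the data were seen, the difference was −0.82, and the mean over all 42 V1 L4 cells was 7.26, beside 10.20 over those 7. *Calb2* differed by −3.94 and *Necab1* by −2.03, with the same sign on both days. With all recording days these were −2.17 and −0.41, and without day 5 the *Necab1* difference was −0.13. Over the days with L5 cells, *Pvalb* differed by −0.85 and *Necab2* by 0.21, which was −0.04 without day 5. *Pvalb* had reads in only 1 of the 7 L4 and 1 of the 17 L5 cells, and its difference was 0 on both days. *Calb2*, *Necab1*, *Pvalb* and *Necab2* did not pass the filter on counts.

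In S1 the comparison held 16 L5 and 12 L4 cells and 3 days. The criterion was met by 995 of 5895 genes (16.9%), 10.7% higher in L5 and 6.16% lower, and by size alone 35% differed, 22.6% higher and 12.4% lower. None of the 5 genes passed the filter on counts here. *Necab2* differed by 1.40 ± 0.62, positive on 3 of 3 days, with reads in 4 of 16 L5 cells and 0 of 12 L4 cells. *Calb1* differed by 2.92 ± 2.97, positive on 2 of 3 days, where 2 of the 12 L4 cells had reads. It was 4.57 without day 3 and 1.16 with all recording days. Over all cells, *Calb2* (−1.08 ± 1.12), *Pvalb* (0.45 ± 2.56) and *Necab1* (0.34 ± 1.06) differed by less than their SD. The mean of the days for *Calb2*, −1.21, was larger in size than its SD. The sign of *Pvalb* turned with the setting, to −1.08 with all recording days, −1.04 with cells without *Sst* kept, −0.54 without day 3, −0.42 as the mean of the days and −0.15 thinned, and *Necab1* was −0.17 with all recording days. The area comparison and the layer comparison share cells, so they are not independent.

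Joint detection showed that *Calb2* cells were nearly all *Calb1* cells. Of 28 cells with *Calb2* reads, 26 also had *Calb1* reads, which is 92.9% of the *Calb2* cells and 40% of the 65 *Calb1* cells. The product of the 2 shares within each area and layer, summed, gives 19.2 cells. Cells with either gene also had more detected genes, with medians of 7529.5 with and 6148 without *Calb2* and of 6765 and 5649 for *Calb1*. The part of this in the joint count was not tested. In V1 L4 the count was 19 of 20 *Calb2* cells, in S1 L4 4 of 5 and in V1 L5 3 of 3. Where both were present *Calb1* had the higher RPKM in 22 of 26 cells, with medians of 509 for *Calb1* and 131.5 for *Calb2*. Centred on each area and layer, the 2 genes had a Pearson r of 0.45 over the kept cells, which share libraries and depth.

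In number of cells, the other pairs lay nearer to the product of their shares, but they also hold fewer cells. *Calb1* and *Pvalb* were together in 20 cells, where the product gives 19.2. *Calb1* and *Necab1* were together in 12 (9.77), *Calb2* and *Pvalb* in 9 (7.59) and *Calb2* and *Necab1* in 7 (4.78). Pairs with *Necab2* were fewer than the product for *Calb1*, with 5 cells (7.64), and for *Calb2*, with 1 (2.61), while *Necab1* and *Necab2* were together in 4 cells (1.72). In S1 L5, however, 4 of 4 *Necab2* cells had *Pvalb* reads, where the product gives 1.75.

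**Figure D4:**
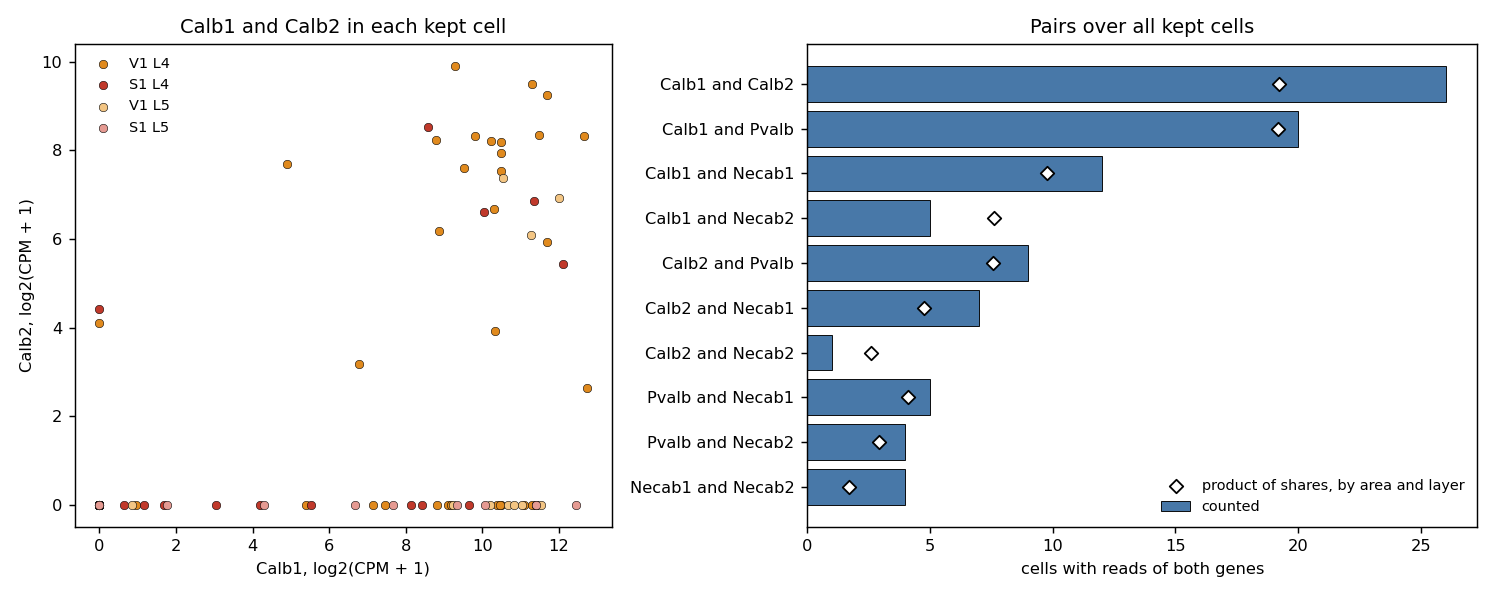
The left plot places each kept cell by its *Calb1* (x) and *Calb2* (y) level in log2(CPM + 1), and the right plot gives for each pair of genes the cells with reads of both (bars) and the number that the product of their shares gives (diamonds). All but 2 of the 28 cells with *Calb2* also have *Calb1*, and the bar of this pair is 26 against 19.2.

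By number of genes, 23 of the kept cells had reads of none of the 5, 37 of 1, 30 of 2, 17 of 3 and 2 of 4, and no cell had all 5. V1 L4 cells most often had 2 or more (26 of 42), followed by S1 L4 (13 of 34), S1 L5 (5 of 16) and V1 L5 (5 of 17). The most frequent states were *Calb1* alone (22 cells), *Calb1* with *Calb2* (12), *Calb1* with *Pvalb* (11) and *Pvalb* alone (10). Of the 12 cells with only *Calb1* and *Calb2*, 10 were V1 L4 cells, and of the 10 with *Pvalb* alone, 6 were S1 L4 cells.

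**Figure D5:**
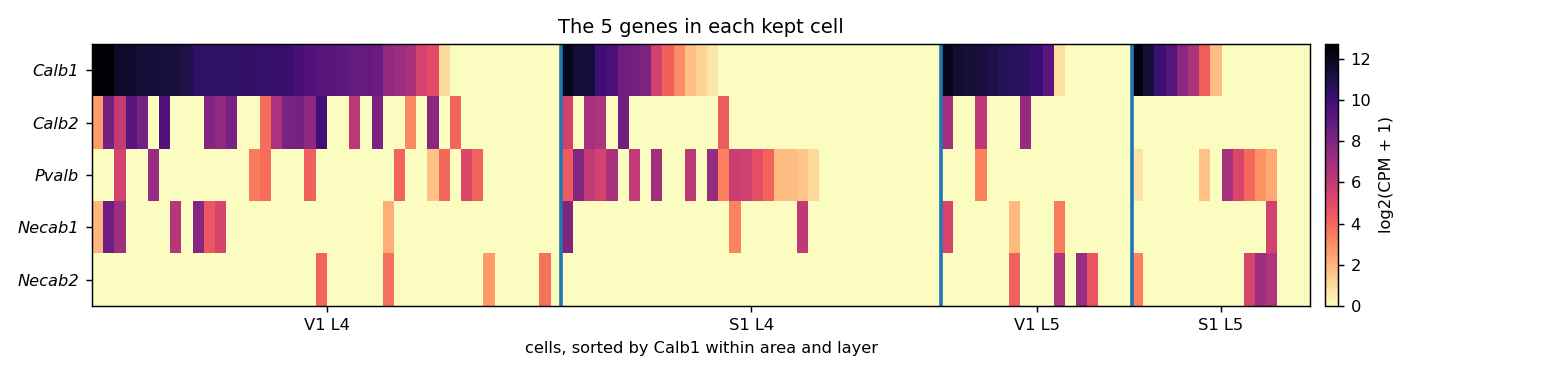
Each column is 1 kept cell, sorted by *Calb1* within area and layer, and color gives log2(CPM + 1) of the 5 genes. *Calb2* lies almost entirely under the *Calb1* cells (26 of 28), whereas *Pvalb* is spread over cells with (20) and without (16) *Calb1* reads.

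In V1 L4, *Hpse* and *Cbln4* were among the SOM+ subtype markers that differed with *Calb1* and *Calb2*, but not all markers did. *Hpse*, a heparanase gene used as a subtype marker, had a mean log2(CPM + 1) of 2.57 in the 32 cells with *Calb1* and of 6.49 in the 10 without. It was found in 5 of 20 *Calb2* cells, where the product of shares gives 10.5. *Cbln4*, a synaptic organizer, was at 6.13 with *Calb1* and 2.97 without, and it was found in 17 of 20 *Calb2* cells, where the product gives 13.3. In the same V1 L4 cells *Crhbp* was at 8.74 with and 8.44 without *Calb1* and *Npy* at 8.97 and 8.90. *Reln* was lower with *Calb1* (8.14 and 10.16), while *Etv1* was higher (2.27 and 0). A like pattern was seen in S1 L4, where *Hpse* was at 3.53 with and 7.17 without *Calb1*, and *Cbln4* at 7.11 and 3.57. In V1 L5 the values were 1.19 and 2.80 for *Hpse* and 2.56 and 0.94 for *Cbln4*. The pattern was not seen in S1 L5, where *Hpse* was at 3.25 and 2.39 and *Cbln4* at 0.77 and 0.81. With *Calb2*, *Hpse* in V1 L5 was at 4.37 in 3 cells and at 1.20 in the others. For *Necab1* and *Necab2* the products are again summed within each area and layer. *Etv1*, a transcription factor gene, was found in 10 of 15 *Necab1* cells (3.67 from the product), and *Crh*, the corticotropin-releasing hormone gene, in 8 of 12 *Necab2* cells (4.84). The *Hpse* and *Cbln4* values are each within a single area and layer, the *Etv1* and *Crh* counts are over cells of 4 groups, and no test was made.

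Cells with *Pvalb* reads did not carry the full set of fast-spiking PV genes. *Tac1* was found in 2 of the kept cells, *Syt2* in 1 and *Pthlh* in 0. The summed level of the 10 list genes other than *Pvalb* had a median of 2094 CPM in the 36 *Pvalb* cells and of 1072 CPM in the 73 others. Within V1 L4 it was 1691 with and 763 without *Pvalb*, within S1 L4 2491 and 1533, and within S1 L5 1405 and 1369. *Nefh*, a neurofilament gene, was found in 30 of 36 *Pvalb* cells and 45 of 73 others, and *Akr1c18* in 17 of 36 and 11 of 73. *Kcnc1* was found in 36 of 36 *Pvalb* cells and 70 of 73 others, so it is a gene of nearly all these cells. Its mean log2(CPM + 1) was 7.99 with and 6.93 without *Pvalb*, but 7.78 and 7.77 within S1 L5. *Cplx1* was at 9.89 and 8.67, and *Vwc2* was found in 26 of 36 and 32 of 73. *Erbb4*, a neuregulin receptor gene, was found in 8 of 36 and 21 of 73, with a mean log2(CPM + 1) of 1.12 and 1.76. These pooled values mix the groups. In V1 L4 it was found in 3 of 10 cells with and 8 of 32 without *Pvalb*. The S1 L4 counts were 1 of 18 and 1 of 16. For S1 L5 they were 4 of 7 and 4 of 9, and for V1 L5 0 of 1 and 8 of 16. Median *Sst* was 1345 CPM with *Pvalb* and 1176 CPM without it in V1 L4, 875 and 1085 in S1 L4 and 519.8 and 1434 in S1 L5. The greater depth of the *Pvalb* cells, given above, goes with these values and its part was not tested.

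For each gene, the 3 genes whose level was most like it over the kept cells were taken from 9993 genes, by Pearson r after centring on each area and layer. For *Calb1* they were *Pcdh8* (0.57), *Kirrel3* (0.50) and *Prkg2* (0.49), and for *Calb2* they were *Nell1* (0.47), *Mrap2* (0.46) and *Calb1* (0.45). For *Pvalb* they were *Akr1c18* (0.50), *Pcp4l1* (0.42) and *Trim23* (0.41). *Akr1c18* belongs to a family with close paralogs, between which reads can be divided. *Etv1* (0.50), *Nell2* (0.43) and *Baiap3* (0.42) were nearest to *Necab1*, and *1700019D03Rik* (0.49), *St6galnac5* (0.48) and *Tmtc2* (0.45) to *Necab2*. With Spearman's rank correlation 2 of the 3 stayed for *Calb1*, 1 for *Calb2* and 0 for the other genes, so the lists of *Pvalb*, *Necab1* and *Necab2* depend on the measure.

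Other EF-hand and calcium-binding genes were followed in the same comparisons. Of 37 such genes, 25 passed the filter on counts in the L4 comparison of areas, 18 in L5, 17 between layers in V1 and 18 between layers in S1. Their median difference was 0.23 in L4, beside 0.01 over all genes tested, and −0.17 in L5, beside 0.24. Between layers the median was −0.37 in V1, beside −0.19 over all genes tested, and 0.45 in S1, beside 0.21. The criterion was met by 1 of 25 in L4 (3.2% of all genes), 1 of 18 in L5 (12.7%), 2 of 17 between layers in V1 (26.8%) and 3 of 18 between layers in S1 (16.9%), and counts this small are given as a description. In L4 it was *Necab3*, the third member of the Necab family, higher in S1 by 2.18 ± 1.44 on 5 of 5 days. In L5 it was *Sdf4*, a calcium-binding gene of the secretory pathway, higher in S1 by 1.84 ± 1.88. Between layers in V1, the calpain gene *Capn2* met the criterion and differed by −1.56. Between layers in S1, *Sdf4* (1.65 ± 1.62) and *Capn2* (2.95 ± 0.84) were higher in L5 and *Cib2* (−2.10, SD 1.0025) was lower. Over all 34 S1 L4 cells the mean of *Cib2* was 3.39, beside 3.24 in S1 L5. *Scgn*, the secretagogin gene, was found in 4 of the kept cells and *Ocm*, the oncomodulin gene, in 0.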

How the data were processed

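Patch-seq RNA was measured in 118 single cells. The authors aligned reads to mm10 with STAR 2.4.2a after bcl2fastq 2.20 and deposited 1 table of counts per gene, not normalized, and 1 of RPKM values. Entries that share a symbol were summed (24490 entries, 23998 symbols). CPM and log2(CPM + 1), with a pseudocount of 1, were computed from the counts, and RPKM was used to compare genes. Each cell is a GEO sample, and cells were grouped by the area and layer in the labels. Genes, lists and comparisons were chosen with earlier results of these data known. Genes named are the 5 genes, related calcium-binding genes that met the criterion, the 3 genes most like each by Pearson r, and marker lists. Some results under this rule are not reported here. Shares have 95% Clopper-Pearson intervals, and a count of 0 allows 3 counts. Thinning drew 250000 reads per cell (seed 1). The difference function was tested on simulated data. Alternatives changed the scaling (TMM from edgeR 4.0.16 among them), pseudocount, filters, depth, summary over cells and recording days. Depth ranged from 97904 to 3295232 counts per kept cell. Scripts ran in R 4.3.3 and Python 3.11.15 with SciPy 1.17.1, pandas 2.3.3, matplotlib 3.10.9 and NumPy 2.4.6. Coordinates are from GENCODE on GRCm38.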

Additional observations from a re-analysis of the deposited data

Results flagged for a closer look

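Of 18 sets of recording-day means, 2 had a day that stood apart from the others. Chance marks about 1 in 20 sets of continuous values, but both of these are 1 cell with reads beside days at 0, which that rate does not describe. *Necab1* in S1 L5 had a mean log2(CPM + 1) of 1.83 on day 3 and 0 on the other days, from a single cell with reads. *Pvalb* in V1 L5 had a mean of 1.12 on day 4 and 0 on the other days, again from a single cell.

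Cells left out of the comparisons also had reads of these genes. The 4 S1 L4 cells without an *Sst* read had a pooled *Pvalb* level of 751 CPM, with reads in 4 of 4 cells and from 94.4 to 921 CPM per cell, where the highest kept cell of any group had 257 CPM. In the same 4 cells *Calb1* was at 59.7 CPM pooled, with reads in 2. The 1 V1 L5 cell with more *Slc17a7* than *Gad1* plus *Gad2* counts had *Calb1* at 92.1 CPM and *Necab1* at 161.9 CPM. Among the 4 cells with fewer than 1500 detected genes, *Calb1* was at 1104 CPM pooled, all of it in 1 V1 L4 cell.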

How the results depend on the processing

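Of 345 differences recomputed under an alternative, 299 stayed within 1 SD of the main value and none of those that met the criterion turned in direction. Some alternatives changed no cell compared and so could not move a value, such as 300000 or more counts between areas in L4. Where the SD was large, a value could turn in sign and still lie within 1 SD, as for *Pvalb* between layers in S1. In V1 the SD between layers comes from 2 days (0.034 for *Calb1* and 0 for *Pvalb*), so nearly every alternative moved these 2 genes. A wider spread would have counted fewer and was not used, since it was considered only after these values were seen. Between layers in V1, *Calb1* was −3.84 with TMM, −3.80 without *Rn45s*, −3.19 with RPKM, −4.98 and −2.44 with pseudocounts of 0.1 and 10, −2.89 with cells of 4000 or more genes, −3.51 with 300000 or more counts, −3.42 thinned, −0.30 as a median, −5.20 as the mean of the days and −0.82 with all recording days, and −4.93 to −3.04 with a day left out. *Pvalb* there was −0.85, −0.86, −0.86, −1.14, −0.53, −0.83, −0.83, −0.82, 0, 0 and −0.84 in the same order, and −1.58 to 0 with a day left out. *Calb2* there was −8.23 as a median, and *Necab2* was 0.91 as the mean of the days and 0.996 with all recording days.

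With pseudocounts of 0.1 and 10, *Calb2* between areas in L4 was −3.52 and −1.42, *Pvalb* between areas in L5 2.41 and 0.49, and *Necab2* between layers in S1 2.22 and 0.66. As medians over cells, *Calb1* between areas was −9.23 in L4 and −9.31 in L5, and *Calb2* in both layers, *Pvalb* in L5 and *Necab2* between layers in S1 were 0. *Pvalb* between areas in L5 was 0.56 thinned. With 32 or more counts, *Pvalb* was in 9.52% of V1 L4, 29.4% of S1 L4, 0% of V1 L5 and 6.25% of S1 L5 cells, *Necab2* in 0% of V1 L4, *Necab1* in 0% of V1 L5, and 30 cells had 2 or more genes. Thinned, *Pvalb* was in 13.3% of S1 L5 cells (33.9% in expectation, added after the draw was seen). Over the days left out, *Necab1* ran from 0 to 9.09% in S1 L5 and *Pvalb* from 0 to 8.33% in V1 L5.

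By size alone, 1452 genes differed between areas in L4, 2153 in L5 and 2062 between layers in S1. By size and sign in every day but without the filter on counts, 2723 genes differed between layers in V1 (1280 with it) and 1741 in S1 (995). With a day left out, the 294 genes of L4 became 306 to 547. They were 510, 539, 547, 483 and 515 without days 2, 3, 5, 7 and 8, which leave 4 days in which the sign must hold. Differences within the recording days that the groups share are given beside the pooled ones. Replicate numbers only name cells and pair none, so no block on them was made.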

Other observations

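The *Nos1* and *Etv1* transcripts were found almost only in cells with *Calb1*, and products of shares are summed within each area and layer. *Nos1*, the neuronal nitric oxide synthase gene, was found in 15 cells, of which 14 had *Calb1* (9.48 from the product), and *Etv1* in 22, of which 20 had *Calb1* (15.1). *Npy* and *Reln*, a neuropeptide gene and an extracellular matrix gene, were found in 63 and 59 of the 65 *Calb1* cells, where the products are 61.3 and 60.5. *Crhbp*, which encodes a binding protein of corticotropin-releasing hormone, was found in 8 of 12 *Necab2* cells and had a mean log2(CPM + 1) of 4.73 there and of 8.41 in the other cells (7.78 and 8.76 within V1 L4, 4.43 and 6.72 within V1 L5, 1.97 and 5.13 within S1 L5), while it was found in 28 of 28 *Calb2* cells.

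Markers of other cells had higher medians over all *Necab2* cells, most of which lay in L5. The median summed level of the excitatory list was 104.3 CPM in the 12 *Necab2* cells and 1.45 CPM in the 97 others, that of the VIP and CGE list 368 and 114.1 CPM, and that of the microglia list 340 and 54.1 CPM. Within V1 L4, V1 L5 and S1 L5 the excitatory and microglia medians were also higher with *Necab2*, and the VIP and CGE median was higher in V1 but was 461 with and 606 without it in S1 L5. Their part in the *Necab2* values was not tested.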
